A study of Mus musculus with 6 samples.

Results

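The Toll-like receptors (TLRs) are membrane proteins with which macrophages detect molecules of microbes and of damaged cells. The 10 genes described here, Tlr1 to Tlr9 and Tlr13, were taken by symbol from the 35865 genes to which the transcripts of the deposited tables were joined, and each of the 10 passed the filter on low counts. They were measured by paired-end RNA sequencing of macrophages sorted from digested mouse hearts. The macrophages derived from donor haematopoietic progenitor cells that either carried the Tet2 knockout (Tet2-/-, called Tet2 KO, 3 libraries) or had intact Tet2 (Tet2+/+, called Tet2 WT, 3 libraries), on the C57BL/6J strain. Tet2 encodes an enzyme that oxidises 5-methylcytosine in DNA, and the study concerns blood clones that lack it in the ageing heart of mice that had not been conditioned. The sort gate, the deleted part of Tet2, the age of the animals and whether a library came from 1 animal or a pool are not given in the sources used here, so the p-values reflect library-to-library variation that could be technical.

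In the mouse, TLR1, TLR2, TLR4, TLR5 and TLR6 act at the cell surface. TLR2 pairs with TLR1 or TLR6 to bind bacterial lipopeptides, TLR4 binds lipopolysaccharide together with MD-2 and CD14, and TLR5 binds flagellin. TLR3, TLR7, TLR8, TLR9 and TLR13 act in endosomes and bind nucleic acids: duplex RNA (TLR3), RNA fragments (TLR7 and TLR8), DNA with unmethylated CpG (TLR9) and bacterial ribosomal RNA (TLR13). Both classes signal through the adaptors MyD88 or TRIF to NF-kB and interferon regulatory factors, and macrophages are among the cells in which the family is best known.

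The libraries held 37349505 to 55771087 estimated counts in Tet2 KO and 49883028 to 53586473 in Tet2 WT. Tet2 itself, the targeted gene, stood at 81.2, 82.6 and 78.2 counts per 1e6 counts (CPM, scaled by TMM) in Tet2 KO and 57.5, 76.1 and 60.8 CPM in Tet2 WT, so its level does not separate the labels by a loss of transcript. The labelled cell type had its markers: 16 of 16 pan-macrophage markers were detected, together at 32000 to 37900 CPM in the Tet2 KO libraries and 20600 to 28100 CPM in the Tet2 WT libraries (marker sums are per 1e6 counts of the library's own total, without TMM), with 12 called higher in Tet2 KO. Fibroblast markers were also present, at 2200 to 4050 CPM in Tet2 KO against 16200 to 30200 CPM in Tet2 WT, and 14 of the 15 were called lower in Tet2 KO. Every level below is a share of a library that held these different amounts of macrophage marker and fibroblast marker RNA. Which cells the fibroblast marker RNA came from was not tested. In such bulk samples a change in the number of macrophages cannot be told apart from a change in RNA per macrophage.

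Of the 10 receptors, 4 were called higher in Tet2 KO with TMM scaling and 0 were called lower: Tlr1 and Tlr2 at the surface, and Tlr7 and Tlr13 in endosomes. A call is an edgeR quasi-likelihood adjusted p under 0.05, adjusted over all 16386 tested genes, of which 6.11% were called higher and 10.1% lower (16.2% in either direction). In CPM, 5 of the 10 (these 4 and Tlr8) lay higher in every Tet2 KO library than in any Tet2 WT library, beside 16.4% of all tested genes (34.5% in either direction). Every one of the 10 had a log2 fold change above 0 with TMM scaling, as had 50.2% of all tested genes, though 6 turned below 0 with marker scaling. The remaining 6 receptors had log2 fold changes from 0.16 to 0.85 and were not called. At an unadjusted p under 0.05, 5 receptors were higher and 0 lower by edgeR, beside 4734 of the 16386 tested genes in either direction. By DESeq2 and limma voom 0 receptors were called lower as well. When the libraries were instead scaled to 12 macrophage markers, 0 of the 10 receptors were called in either direction (also 0 at an unadjusted p under 0.05), and the sign turned for Tlr3, Tlr4, Tlr5, Tlr6, Tlr7 and Tlr8.

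The receptors differed widely in level, and the same tiers appeared in both genotypes. Levels between genes are compared per transcript length, in transcripts per 1e6 transcripts (TPM) summed over the transcripts of a gene. Tlr2 was the most abundant, at 130.2 ± 20.9 TPM in the Tet2 KO libraries and 87.0 ± 10.5 TPM in the Tet2 WT libraries (mean ± SD, n = 3 each, as for the levels that follow), and its lowest library lay above the highest library of any other receptor within each genotype. A middle tier held Tlr8 (59.9 ± 13.4 TPM in the Tet2 KO libraries and 42.5 ± 7.56 TPM in the Tet2 WT libraries), Tlr4 (59.7 ± 6.43 TPM in Tet2 KO against 53.5 ± 6.83 TPM in Tet2 WT), Tlr7 (57.1 ± 7.12 TPM in Tet2 KO against 45.4 ± 4.82 TPM in Tet2 WT), Tlr1 (46.2 ± 8.47 TPM in Tet2 KO against 30.6 ± 6.33 TPM in Tet2 WT) and Tlr13, whose neighbours in the order overlapped between libraries. Tlr13, the lowest of the middle tier by mean TPM over all its transcripts, averaged 46.0 ± 11.6 TPM in the Tet2 KO libraries and 28.6 ± 3.80 TPM in the Tet2 WT libraries. A lower tier held Tlr5 (14.8 ± 2.47 TPM in the Tet2 KO libraries and 14.1 ± 4.29 TPM in the Tet2 WT libraries), Tlr3 and Tlr6, the last at 10.2 ± 1.89 TPM in Tet2 KO against 8.83 ± 2.54 TPM in Tet2 WT. Tlr9, the DNA sensor, was at 1.28 ± 0.639 TPM in the Tet2 KO libraries and 0.800 ± 0.212 TPM in the Tet2 WT libraries. The 5 surface receptors made up 56.0% to 63.7% of the summed TLR level (TPM) in Tet2 KO and 58.7% to 61.1% in Tet2 WT, so the groups overlapped in how the family's transcripts were divided between surface and endosome.

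**Figure D1:**
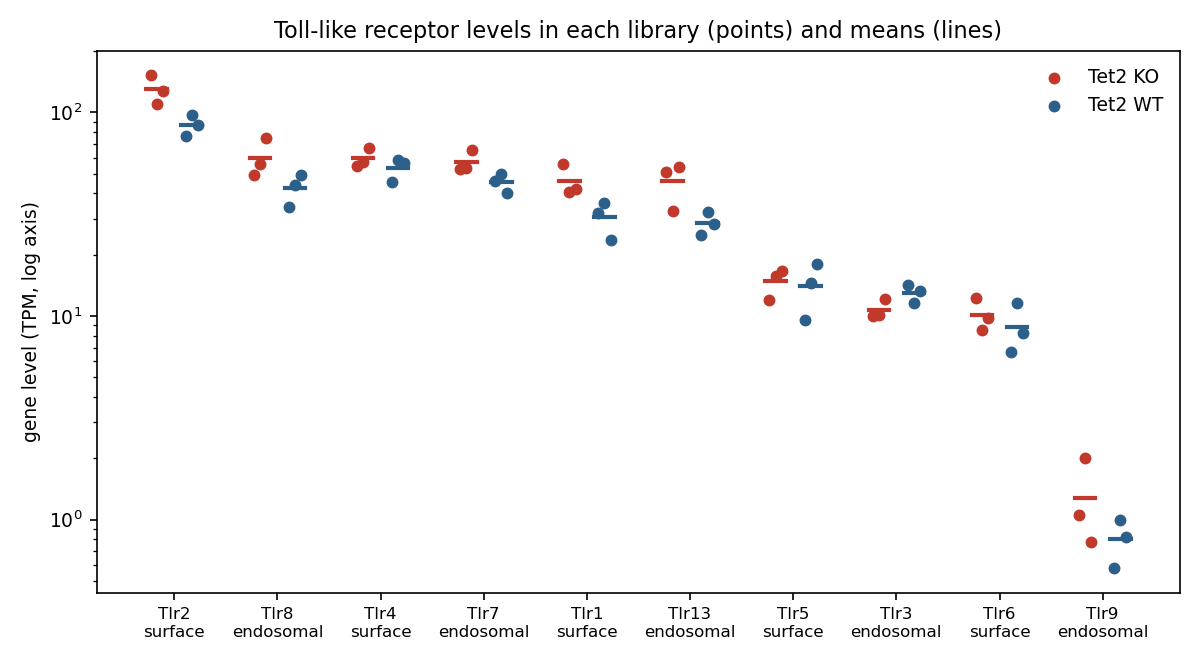
Level of each Toll-like receptor gene in TPM on a log axis, with 1 point per library and a line at the mean of the 3 libraries of a genotype; Tet2 KO stands left of Tet2 WT. Tlr2 lies highest and Tlr9 lowest in both genotypes, and the libraries of the genotypes do not overlap in TPM for Tlr1, Tlr2, Tlr7 and Tlr13. The share of all genes without overlap was not computed in TPM. In CPM it was 34.5% of all tested genes in either direction and 16.4% higher in Tet2 KO.

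Part of these gene levels sits on short annotated transcripts, which weigh more per read on the TPM scale. Transcripts under 2000 bases held 44.9% of the TPM of Tlr8 but 6.25% of its counts, and 50.4% of the TPM of Tlr3 but 6.78% of its counts. For Tlr1 they held 30.3% of the TPM but 3.82% of the counts. Over the long transcripts alone, Tlr8 was at 32.2 ± 9.77 TPM in the Tet2 KO libraries and 24.3 ± 3.51 TPM in the Tet2 WT libraries, below Tlr4 at 53.6 ± 3.78 TPM in Tet2 KO against 48.8 ± 6.28 TPM in Tet2 WT. On that basis Tlr13 averaged 44.4 TPM in Tet2 KO and 27.9 TPM in Tet2 WT, above Tlr1 at 34.4 and 19.1 TPM and above Tlr8. The rank of Tlr13 in the middle tier thus depends on the short transcripts. Tlr3 averaged 10.8 ± 1.17 TPM in the Tet2 KO libraries and 13.0 ± 1.29 TPM in the Tet2 WT libraries over all its transcripts, while its long transcripts stood at 5.47, 6.71 and 5.80 TPM in the Tet2 KO libraries and 6.02, 5.62 and 5.74 TPM in the Tet2 WT libraries, which overlapped. Tlr2 and Tlr9 have 1 listed transcript each, so their levels do not depend on this division.

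Tlr2, the shared partner in the lipopeptide receptors, had 338, 256 and 284 CPM in Tet2 KO against 157, 202 and 168 CPM in Tet2 WT. Every Tet2 KO library lay above every Tet2 WT library. The log2 fold change was 0.74 ± 0.15 (SE, edgeR adjusted p = 0.00978), and the call was kept in each of the 6 fits that left out 1 library (edgeR adjusted p from 0.00764 to 0.0419). It was lost when replicate 1 of both genotypes was left out together (log2 fold change 0.55, edgeR adjusted p = 0.0976). The gene lies on chromosome 3 (GRCm38 83836272 to 83841767, minus strand).

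Tlr1, the partner of TLR2 for triacylated lipopeptides, stood at 92.7, 69.6 and 65.9 CPM in the Tet2 KO libraries and 36.8, 45.7 and 34.1 CPM in the Tet2 WT libraries, without overlap. Its log2 fold change, 0.97 ± 0.17 (SE, edgeR adjusted p = 0.00461), was kept as a call with any 1 library left out (edgeR adjusted p from 0.00466 to 0.0266). The call was lost with limma on log2(TPM + 1), at 0.59 (adjusted p = 0.0705), and on log2(TPM + 0.1), at 0.60 (adjusted p = 0.0673). Tlr6, the partner for diacylated lipopeptides, had 25.8, 21.9 and 19.4 CPM in the Tet2 KO libraries and 14.3, 25 and 14.7 CPM in the Tet2 WT libraries. For Tlr6 the groups overlapped through Tet2 WT replicate 2, and its log2 fold change of 0.31 ± 0.24 was not called (edgeR adjusted p = 0.442). Without that library it was 0.63 (edgeR adjusted p = 0.0601).

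Tlr1 and Tlr6 are neighbours on chromosome 5 (GRCm38 64924679 to 64933563 and 64952031 to 64960097, both on the minus strand) and near-identical over part of their coding sequence, so the division of reads between them is uncertain. Of the 31-base words in the Tlr1 transcripts, the word length kallisto uses by default, 19.9% also occur in another gene (662 of 3322, of which 607 occur in Tlr6), and 16.6% of those of Tlr6 occur in another gene. For Tlr2, Tlr3, Tlr5, Tlr7, Tlr8, Tlr9 and Tlr13 no such word is shared with another gene, and for Tlr4 0.58% are. The longest stretch that both genes carry without a mismatch is shown because reads from it fit both. It spans 229 bases of a coding exon, at chr5:64925537-64925765 in Tlr1 and chr5:64953828-64954056 in Tlr6, and is given in the direction of transcription.
Tlr1 and Tlr6: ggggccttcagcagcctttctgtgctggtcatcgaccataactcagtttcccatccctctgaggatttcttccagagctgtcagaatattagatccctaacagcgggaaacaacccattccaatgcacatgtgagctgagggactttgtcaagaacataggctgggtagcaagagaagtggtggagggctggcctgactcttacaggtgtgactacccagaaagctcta
With the counts of Tlr1 and Tlr6 summed as 1 gene, the log2 fold change reached 0.79 ± 0.18 (edgeR adjusted p = 0.0159). The ratio of Tlr1 to Tlr6 counts was 3.60, 3.18 and 3.39 in Tet2 KO and 2.58, 1.83 and 2.32 in Tet2 WT, higher in each Tet2 KO library (exact permutation test, two-sided p = 0.1, which is the minimum for this design; adjusted over 2 such ratios p = 0.2). That ratio rests on how kallisto divided the shared reads.

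Tlr4, the lipopolysaccharide receptor, stood at 154, 174 and 179 CPM in the Tet2 KO libraries and 119, 156 and 137 CPM in the Tet2 WT libraries. The groups overlapped, and the log2 fold change of 0.30 ± 0.14 was not called (edgeR adjusted p = 0.185). Tlr5, the flagellin receptor, had 26.5, 33.0 and 32.3 CPM in the Tet2 KO libraries and 19.2, 27.9 and 31.5 CPM in the Tet2 WT libraries, with a change of 0.22 ± 0.20 on the log2 scale (edgeR adjusted p = 0.519). That value was 0.06 without Tet2 WT replicate 1 and 0.39 without Tet2 WT replicate 3. The median log2 fold change of the 5 surface receptors was 0.31, beside 0.00 (0.0025) for all tested genes.

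Among the endosomal receptors, Tlr13, which in the mouse senses bacterial ribosomal RNA, had 151, 97.8 and 161 CPM in Tet2 KO against 68.5, 88.0 and 75.5 CPM in Tet2 WT. The groups did not overlap, with Tet2 KO replicate 2 close to the highest Tet2 WT library. Its log2 fold change was 0.82 ± 0.19 (SE, edgeR adjusted p = 0.0175). Leaving out Tet2 KO replicate 1 ended the call (edgeR adjusted p = 0.0617), as did leaving out Tet2 KO replicate 3 (0.0772), Tet2 WT replicate 1 (0.0756) or Tet2 WT replicate 3 (0.0570). With limma on log2(TPM + 1) it was 0.64 (adjusted p = 0.0642).

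Tlr7, a sensor of RNA fragments whose activity in mice drives interferon production, had 124, 127 and 145 CPM in the Tet2 KO libraries and 82.0, 104 and 73.7 CPM in the Tet2 WT libraries. Each Tet2 KO library lay above each Tet2 WT library, and the log2 fold change was 0.61 ± 0.15 (SE, edgeR adjusted p = 0.0221). Leaving out Tet2 KO replicate 3 ended the call (edgeR adjusted p = 0.0986), as did leaving out Tet2 WT replicate 1 (0.0874) or Tet2 WT replicate 3 (0.0808) and fitting length-scaled TPM counts (0.0602). With limma on log2(TPM + 1) it was 0.32 (adjusted p = 0.195). Of its 3 long coding transcripts, ENSMUST00000060719.11 held most of the TPM, at 28.2, 26.8 and 37.7 TPM in the Tet2 KO libraries and 20.03, 25.4 and 20.7 TPM in the Tet2 WT libraries.

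Tlr8 lies beside Tlr7 on the X chromosome, and in the mouse its loss is known to raise Tlr7 responses. It had 69.4, 80.1 and 117 CPM in the Tet2 KO libraries and 50.4, 63.6 and 64.6 CPM in the Tet2 WT libraries, with no overlap but a wide spread in Tet2 KO. The log2 fold change of 0.58 ± 0.20 was not called (edgeR adjusted p = 0.0810), though it was called by DESeq2 (adjusted p = 0.0405), with length-scaled TPM counts (edgeR adjusted p = 0.0449), with the replicate number as a block (0.0458) and without Tet2 KO replicate 1 (0.0416). Without Tet2 KO replicate 3, its highest library, that value was 0.33 (edgeR adjusted p = 0.292). The ratio of Tlr7 to Tlr8 counts averaged 1.54 ± 0.279 in Tet2 KO and 1.47 ± 0.282 in Tet2 WT (SD, n = 3 each; exact permutation test, two-sided p = 0.7).

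Tlr3, the duplex RNA sensor that signals through TRIF, had 17.9, 21.9 and 19.9 CPM in the Tet2 KO libraries and 19.1, 17.8 and 16.7 CPM in the Tet2 WT libraries. The groups overlapped (log2 fold change 0.16 ± 0.16, edgeR adjusted p = 0.576), and the sign turned with length-scaled TPM counts (-0.13). Without Tet2 KO replicate 2 the log2 fold change was 0.09. Tlr9 was the scarcest member, with 95, 277 and 105 counts in Tet2 KO and 72, 134 and 101 counts in Tet2 WT. Its log2 fold change of 0.85 ± 0.44 was not called (edgeR adjusted p = 0.247), and it was 0.34 without Tet2 KO replicate 2. B cells and dendritic cells also use Tlr9. The 6 B cell markers (Cd79b gave most of the sum) summed to 36.7, 30.5 and 28.3 CPM in the Tet2 KO libraries and 15.8, 21.8 and 14.3 CPM in the Tet2 WT libraries. Only 4 of the 6 passed the filter on low counts, with 1 called higher, 0 lower and 3 neither (log2 fold changes from -0.41 to 1.17). The 9 dendritic cell markers summed to 291, 316 and 285 CPM in the Tet2 KO libraries and 427, 367 and 400 CPM in the Tet2 WT libraries. Of the 9 dendritic cell markers, 1 was called higher, 1 lower and 7 neither (median log2 fold change 0.09). Of all tested genes, 6.11% were called higher and 10.1% lower. The 1 called lower, Tcf4 (log2 fold change -0.64, edgeR adjusted p = 0.0074), gave the largest share of the dendritic cell sum. Without Tcf4, a choice made after the values were seen, the dendritic cell sum was 124, 159 and 122 CPM in Tet2 KO against 115, 111 and 125 CPM in Tet2 WT, which overlapped. The part of these cells in the Tlr9 level was not tested. The median log2 fold change of the 5 endosomal receptors was 0.61, against 0.31 for the surface receptors, a difference given without a test.

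Tlr7, Tlr8 and Tlr13 are X-linked, at GRCm38 167304929 to 167330558 (minus strand), 167242696 to 167264329 (minus strand) and 106143204 to 106160493 (plus strand). Y-linked Ddx3y was present in all 6 libraries at 80.9 to 87.2 CPM in Tet2 KO and 81.0 to 90.5 CPM in Tet2 WT. Of 550 X-linked genes tested, 35 were called higher in Tet2 KO (6.36%), near the 6.11% of all tested genes, and 72 were called lower (13.1%).

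**Figure D2:**
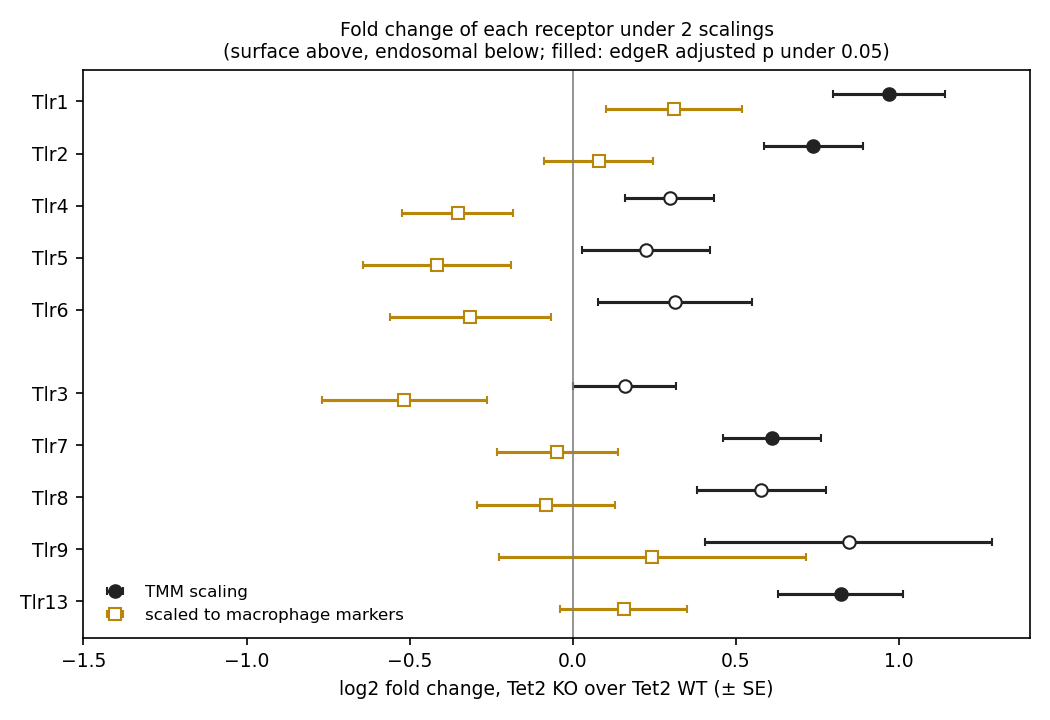
Log2 fold change of each receptor, Tet2 KO over Tet2 WT, with its standard error, from edgeR with TMM scaling (circles) and with scaling to 12 macrophage markers (squares); filled symbols mark an adjusted p under 0.05. With TMM scaling all 10 lie above 0 and Tlr1, Tlr2, Tlr7 and Tlr13 are filled, while with marker scaling no symbol is filled and Tlr3, Tlr4, Tlr5, Tlr6, Tlr7 and Tlr8 lie below 0.

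The receptors were next set against the macrophage markers of the same library, since those markers differed between the genotypes as well. The 12 markers used (among them Adgre1, Csf1r, Mertk and Spi1) had a median log2 fold change of 0.72 with TMM scaling. Their log2 fold changes ran from 0.21 to 0.91, and 8 of the 12 were called higher. Relative to them, Tlr2 differed by 0.09 ± 0.12 on the log2 scale (SE, Tet2 KO minus Tet2 WT), Tlr7 by -0.03 ± 0.13, Tlr13 by 0.15 ± 0.21 and Tlr1 by 0.31 ± 0.18, and for each of these the libraries of the genotypes overlapped (exact permutation tests, two-sided p = 0.7, 0.9, 0.5 and 0.2). Tlr6 differed by -0.30 ± 0.19, Tlr8 by -0.10 ± 0.23 and Tlr9 by -0.01 ± 0.38 on the same scale, also with overlap.

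In 3 cases, Tlr4, Tlr5 and Tlr3, the receptor was lower relative to the markers in every Tet2 KO library than in any Tet2 WT library. The same held for 62.3% of all tested genes (63% did not overlap in either direction), so 3 of 10 is a smaller share than that of all genes. Tlr4 stood at -1.78, -1.56 and -1.58 in Tet2 KO and -1.25, -1.36 and -1.28 in Tet2 WT on this relative log2 scale, a difference of -0.34 ± 0.08. Tlr5 differed by -0.40 ± 0.18 and Tlr3 by -0.49 ± 0.20, also without overlap between the genotypes. With 1 library left out the difference ran from -0.48 to -0.25 for Tlr5 (nearest 0 without Tet2 WT replicate 3) and from -0.62 to -0.32 for Tlr3 (nearest 0 without Tet2 WT replicate 1). The exact permutation test gave a two-sided p of 0.1 for each of the 3, the smallest it can give, and 0.333 adjusted over the 10 receptors. In the edgeR fit with marker scaling Tlr4 had a log2 fold change of -0.35 ± 0.17 (adjusted p = 0.106). That scaling moved the median of all tested genes by -0.67 on the log2 scale. With it 38.4% of all tested genes were called lower (38.5% in either direction), and each receptor below 0, Tlr3 (-0.52 ± 0.25) included, lay above the median of all tested genes.

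**Figure D3:**
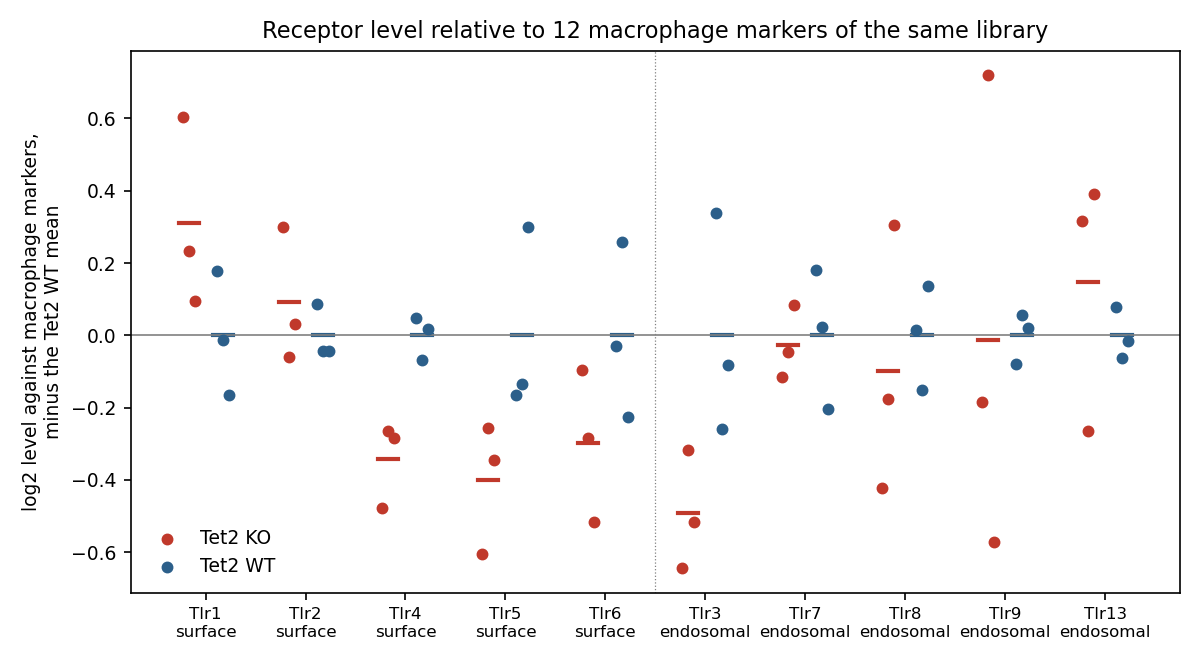
Level of each receptor relative to 12 macrophage markers of the same library, as log2(CPM + 0.5) minus the mean of the markers and minus the Tet2 WT mean of that receptor, with 1 point per library and a line at the mean; Tet2 KO stands left of Tet2 WT. Tlr4, Tlr5 and Tlr3 lie lower in each Tet2 KO library than in any Tet2 WT library (differences of -0.34, -0.40 and -0.49), and the other 7 receptors overlap.

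Genes that work with the receptors were followed from the co-receptors inwards, with the same fit. Each count of calls with TMM scaling below stands beside 6.11% of all tested genes called higher and 10.1% called lower. The list medians below are positive with TMM scaling and turned negative with marker scaling for every pathway list. Of 7 surface co-receptors, 2 were called higher, 2 lower and 3 neither (median log2 fold change 0.41). Cd14, which hands lipopolysaccharide to TLR4 and is also a macrophage marker here, averaged 1196 ± 77.4 CPM in the Tet2 KO libraries and 641 ± 117 CPM in the Tet2 WT libraries (log2 fold change 0.90 ± 0.16, edgeR adjusted p = 0.00457). Ly86, the MD-1 partner of the TLR4-like receptor CD180, had 0.61 ± 0.15 (edgeR adjusted p = 0.0227). Ly96, which encodes MD-2, was at 56.7 ± 5.22 CPM in the Tet2 KO libraries and 47.3 ± 5.18 CPM in the Tet2 WT libraries and was not called (0.26 ± 0.14, edgeR adjusted p = 0.252). The lipopolysaccharide-binding protein gene Lbp and the TLR accessory gene Tril fell by 2.52 and 2.79 on the log2 scale (edgeR adjusted p = 0.000752 and 0.000169), beside a median of -3.01 for the fibroblast markers; the part of the fibroblast RNA in these falls was not tested.

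Endosomal TLRs need transport and cleavage before they can signal. Of 10 tested chaperone and trafficking genes, 3 were called higher and 0 lower (median 0.32), beside 6.11% higher and 10.1% lower of all tested genes. Unc93b1, the chaperone that carries the endosomal receptors, averaged 1037 ± 160 CPM in the Tet2 KO libraries and 568 ± 90.2 CPM in the Tet2 WT libraries (log2 fold change 0.87 ± 0.17, edgeR adjusted p = 0.00783). Slc15a4, an endolysosomal transporter needed for TLR7 and TLR9 signalling, had 0.58 ± 0.12, and the small GTPase gene Rab7b 0.71 ± 0.14. Hsp90b1, the chaperone gp96 of most TLRs, differed by 0.02 ± 0.13 (edgeR adjusted p = 0.938). With marker scaling Hsp90b1 was at -0.66 (edgeR adjusted p = 0.00778), beside a median of -0.67 for all tested genes, of which 38.4% were called lower. Of 10 endosomal proteases and nucleases, 6 were called higher and 2 lower (median 0.59). The endosomal exonuclease gene Pld4 had 0.94 ± 0.16, the cathepsin gene Ctss 0.81 ± 0.15, the legumain gene Lgmn 0.77 ± 0.16 and Ctsb 0.79 ± 0.21. Rnaset2a and Rnaset2b, near-identical copies between which the reads are uncertain, were the other 2 called higher. Ctsl and Ctsk were lower, at -1.05 ± 0.16 and -2.81 ± 0.25, beside a median of -3.01 for the fibroblast markers. The part of the fibroblast RNA in these falls was not tested.

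Of 7 adaptors, 4 were called higher and 0 lower (median 0.52), beside 6.11% higher and 10.1% lower of all tested genes. Myd88, the adaptor of every member here except TLR3, averaged 120.1 ± 6.52 CPM in the Tet2 KO libraries and 84.0 ± 1.77 CPM in the Tet2 WT libraries (log2 fold change 0.52 ± 0.11, edgeR adjusted p = 0.0125). Pik3ap1, which links TLRs to phosphoinositide kinase, had 0.87 ± 0.14, the TLR adaptor gene Scimp 0.76 ± 0.14, and Ticam2, the bridging adaptor of TLR4, 0.64 ± 0.16. Ticam1, which encodes TRIF, differed by -0.02 ± 0.22 and Tirap by 0.13 ± 0.13, and neither was called. Downstream, 6 of 20 kinases and ubiquitin ligases were called higher and 0 lower (median 0.36), with Peli1 at 0.61 ± 0.12, Btk at 0.58 ± 0.13, Irak2 at 0.67 ± 0.16 and Ikbkb at 0.48 ± 0.13. The core genes Irak1, Irak4, Traf6 and Map3k7 were not called, with log2 fold changes of -0.10 ± 0.13, 0.30 ± 0.13, 0.05 ± 0.14 and 0.01 ± 0.14. With marker scaling 6 of the 20 were called lower, Irak1, Traf6 and Map3k7 among them, a share below the 38.4% of all tested genes.

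Of 10 transcription factors, 4 were called higher and 0 lower (median 0.40), beside 6.11% higher and 10.1% lower of all tested genes. Irf7, the interferon regulatory factor through which TLR7 and TLR9 induce type I interferon, had 1.42 ± 0.19 (edgeR adjusted p = 0.00103), and it was the 1 gene of these pathway lists also called higher with marker scaling (0.74, edgeR adjusted p = 0.0410). Irf5 had 0.77 ± 0.15, Irf8 0.64 ± 0.15 and Nfkb2 0.55 ± 0.14. Of 16 negative regulators, 6 were called higher and 0 lower (median 0.56), with Nrros, which restrains TLR signalling in mouse phagocytes, at 0.80 ± 0.17, Tank at 0.51 ± 0.13, Trafd1 at 0.57 ± 0.15 and Atf3 at 0.69 ± 0.18. Of 19 tested genes that TLR signals induce, 4 were called higher and 0 lower (median 0.52): Il1b (1.10 ± 0.22), Ptgs2 (1.30 ± 0.29), Marcksl1 (0.62 ± 0.17) and Il1rn (0.94 ± 0.28, edgeR adjusted p = 0.0496).

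Of 15 other pattern recognition receptors, 7 were called higher and 0 lower (median 0.56), beside 6.11% higher and 10.1% lower of all tested genes. The C-type lectin gene Clec4n had 1.07 ± 0.18, the RNA sensor gene Dhx58 0.93 ± 0.16 and Tmem173, which encodes STING, 0.66 ± 0.12. The pan-macrophage markers, 12 of 16 of which were called higher, had a median of 0.72. With marker scaling the medians of all these pathway lists lay between -0.33 and -0.08, beside -0.67 for all tested genes. With that scaling, which called 38.4% of all tested genes lower, the lower calls numbered 2 of 7 co-receptors, 3 of 10 chaperone and trafficking genes, 2 of 10 proteases and nucleases, 2 of 16 negative regulators, 1 of 10 transcription factors and 1 of 15 other pattern recognition receptors, and 0 adaptors and 0 induced genes.

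**Figure D4:**
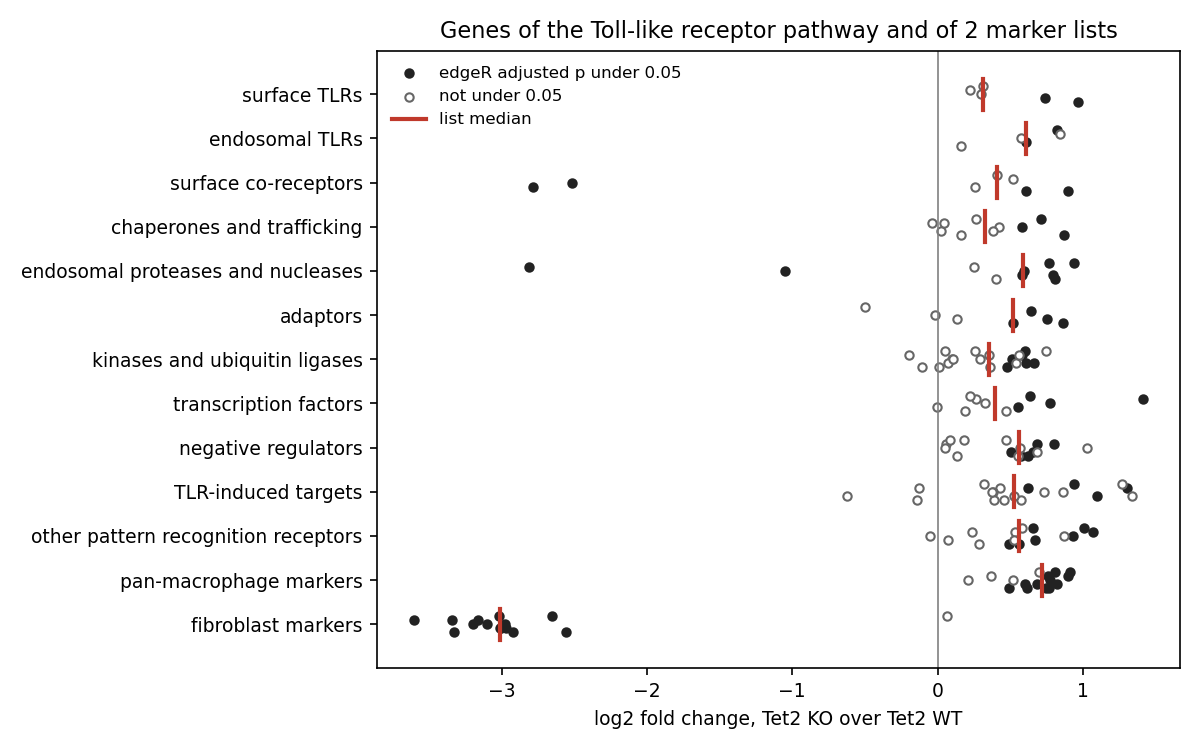
Log2 fold change with TMM scaling, Tet2 KO over Tet2 WT, of each tested gene of the Toll-like receptor lists, their pathway lists and 2 marker lists, with 1 point per gene, filled where the edgeR adjusted p was under 0.05, and a line at each list's median. The medians of the receptor and pathway lists lie between 0.31 and 0.61, below the 0.72 of the pan-macrophage markers, with Tril, Lbp, Ctsk and Ctsl apart on the left; with marker scaling the medians of the receptor and pathway lists turn below 0, while that of the pan-macrophage markers is 0.08.

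The profiles of the receptors over the 6 libraries were compared by the root-mean-square distance between log2 CPM values centred per gene, as a description. Tlr1 and Tlr2 were the closest members (0.15), followed by Tlr4 and Tlr5 (0.16) and by Tlr2 and Tlr13 (0.17). Among protein-coding genes, Tlr2 was nearest to Cd48, Mcub and Bin2 (0.03, 0.04 and 0.04), Tlr1 to Limd2, Map4k1 and Fcgr4 (0.05, 0.06 and 0.08), Tlr7 to Clec4a1 (0.06) and Tlr4 to Foxp1 (0.03). The nearest neighbour of Tlr9 was Tmem88, at 0.22.

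The promoters of Tlr1, Tlr2 and Tlr13 are shown because these were the receptors called higher with TMM scaling for which a window was found, from the RefSeq promoter windows of GRCm38.p6, which run from 250 bases before to 50 after a start site. Windows were found for 8 of the 10 receptors (not for Tlr4 and Tlr7). Bases within annotated exons are left out, and capitals mark the PU-box GAGGAA (searched on both strands), a motif bound by the myeloid factor PU.1. The printed bases, which leave out the exon part of each window, lie at chr3:83841768-83841858 (minus strand), chr5:64933564-64933808 (minus strand) and chrX:106143025-106143203 (plus strand). Tlr1 has a second window, which holds none of the motifs searched and is not shown.
Tlr2: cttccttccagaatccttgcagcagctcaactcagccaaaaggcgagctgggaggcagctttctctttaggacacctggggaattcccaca
Tlr1: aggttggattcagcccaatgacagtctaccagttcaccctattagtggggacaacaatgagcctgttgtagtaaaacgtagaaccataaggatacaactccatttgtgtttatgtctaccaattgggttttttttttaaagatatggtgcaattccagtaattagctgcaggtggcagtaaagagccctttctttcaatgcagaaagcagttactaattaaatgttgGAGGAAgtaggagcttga
Tlr13: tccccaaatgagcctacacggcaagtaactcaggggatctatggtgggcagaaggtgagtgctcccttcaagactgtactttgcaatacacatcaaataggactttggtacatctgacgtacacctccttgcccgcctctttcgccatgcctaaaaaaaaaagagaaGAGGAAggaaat
The PU-box occurred in 4 of the 8 receptors (Tlr1, Tlr8, Tlr9 and Tlr13) and in 4 of their 10 windows, against 28.3% of all 32851 windows. A core of the interferon-stimulated response element occurred in 1 receptor, Tlr6 (3.44% of all windows), and the AP-1 motif TGANTCA in 1, Tlr9 (7.81% of all windows). These matches are letters in a window and carry no measurement of binding.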

How the data were processed

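RNA from sorted cardiac macrophages was sequenced in 6 libraries, 3 per genotype. The submitters' processing notes name Trim Galore 0.6.4, kallisto 0.44.0 and the build GRCm38. Per the file headers, the authors deposited an estimated count, not normalized, a TPM value scaled within each library, and an effective length for each transcript.

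Of 118783 transcripts, 116622 (98.2%) matched GENCODE M21 by identifier without version; the 2161 others, no more than 0.671% of any library's counts, were left out. Estimated counts were summed per gene and rounded, filtered with filterByExpr, TMM-scaled, and put through the robust quasi-likelihood test of edgeR 4.0.16 (R 4.3.3, genotype only, Benjamini-Hochberg adjustment over the 16386 genes tested). A standard error is the log2 fold change divided by the root of its F value. Marker sums use each library's own total. The libraries of a genotype differed by more than sampling noise (chi-square per gene at least 63.9).

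The receptors and lists were chosen with earlier results of these data known. Named genes were the 10 receptors, Tlr11 and Tlr12; up to 4 genes per list and direction by adjusted p (up to 3 for other pattern recognition receptors); and the 3 nearest profiles per receptor, of which some are printed. Members named besides, such as Ly96, Hsp90b1, Ticam1, Tirap, Irak1, Irak4, Traf6, Map3k7, Rnaset2a and Rnaset2b, were chosen after their values were seen. Alternatives were RLE, upper-quartile and macrophage-marker scaling, 2 other low-count filters, libraries left out, a replicate block, a fibroblast covariate, length-scaled TPM counts, protein-coding transcripts only, Tlr1 and Tlr6 summed, DESeq2 1.42.0, limma 3.58.1 voom, and limma on log2(TPM + 1) and log2(TPM + 0.1).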

Additional observations from a re-analysis of the deposited data

How the results depend on the processing

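Of the 372 values recomputed under other settings, 310 were classed as the same. A value was so classed if it kept its direction and side of the threshold or moved by less than the spread between libraries. Levels relative to the markers thus stayed in this class even where their sign turned, as for Tlr2, Tlr7, Tlr8 and Tlr9. A count of calls was so classed if it stayed within a fixed ratio of the main count. By that rule 3455 genes called by DESeq2 beside 2653 in the main fit, and 5 receptors beside 4, counted as the same. So did the count of receptors called lower, which was 0 under every setting. With RLE or upper-quartile scaling, either other low-count filter, protein-coding transcripts only, length-scaled TPM counts or limma voom, 4 receptors were called higher, and 5 by DESeq2. The 4 with length-scaled TPM counts held Tlr8 (edgeR adjusted p = 0.0449) in place of Tlr7 (0.0602). With libraries left out 1 at a time, 2 to 4 receptors were called higher, 1382 to 3141 genes were called in all, and the median log2 fold change of the surface receptors ran from 0.22 to 0.63 (0.63 without Tet2 WT replicate 2). With replicate 1 of both genotypes left out together, 1 receptor (Tlr1) and 1188 genes were called. Scaling to the macrophage markers called 0 receptors and 6313 genes and put the medians at -0.31 (surface) and -0.047 (endosomal), with Tlr3 at -0.52, Tlr4 at -0.35, Tlr5 at -0.42, Tlr6 at -0.31, Tlr7 at -0.047 and Tlr8 at -0.082; that scaling lowers every gene by construction, as the markers were higher in Tet2 KO. With a covariate for the mean log2 CPM of the fibroblast markers, edgeR called 0 receptors (0 at an unadjusted p under 0.05) and 0 genes (1625 unadjusted), with medians of -0.42 and 0.19. Below 0 were Tlr4 (-0.42 ± 0.53, SE), Tlr5 (-0.80 ± 0.82), Tlr6 (-0.90 ± 0.96), Tlr3 (-0.22 ± 0.66) and Tlr9 (-3.11 ± 1.38, edgeR adjusted p = 0.506). Above 0 were Tlr1 (0.87 ± 0.76), Tlr2 (0.80 ± 0.66), Tlr7 (0.19 ± 0.64), Tlr8 (0.61 ± 0.91) and Tlr13 (1.72 ± 0.81). The summed fibroblast markers of the genotypes do not overlap, so this fit can hardly separate the covariate from the genotype. Limma on log2(TPM + 1) and on log2(TPM + 0.1) each called 1 receptor, Tlr2, and put Tlr3 at -0.26 and -0.28 and the endosomal median at 0.32 with the first; length-scaled TPM counts put Tlr3 at -0.13. The cause of these TPM-based changes was not tested. Whether the replicate numbers pair the libraries is not settled. The correlations of same-numbered deviations were low, at 0.06, 0.13 and 0.04, yet each library correlated best with its own number. That is a hint from the data and not the design. With the replicate number as a block, 5 receptors were called higher, Tlr8 being added, and 2347 genes in all. The depth limits Tlr9, at 72 to 277 counts per library, more than any other receptor.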

Other observations

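Tlr11 and Tlr12, which in the mouse recognise profilin of protozoan parasites, were outside the 10 receptors but were tested in the same fit, and both were scarce. Tlr11 had 124, 239 and 300 counts in Tet2 KO and 192, 96 and 76 counts in Tet2 WT, which overlapped, and differed by 1.04 ± 0.42 on the log2 scale (edgeR adjusted p = 0.129). Tlr12 had 201, 349 and 231 counts in Tet2 KO and 115, 253 and 243 counts in Tet2 WT, and differed by 0.60 ± 0.35 on the log2 scale (edgeR adjusted p = 0.304).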
